A study of Gallus gallus with 9 samples.

Results

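Nucleotide excision repair removes bulky, helix-distorting lesions from DNA, such as those made by ultraviolet light. The lesion is found in either of 2 ways. In global genome repair, XPC scans the duplex together with RAD23B and CETN2, and the DDB2 protein finds lesions that XPC recognizes poorly. In transcription-coupled repair, the lesion is signalled by a stalled RNA polymerase through ERCC6 (CSB) and ERCC8 (CSA). Both routes then use TFIIH, the XPA protein that verifies the lesion, and the nuclease ERCC5 (XPG), which cuts the strand on one side of it. These 8 damage recognition genes, XPC, RAD23B, CETN2, DDB2, ERCC6, ERCC8, XPA, and ERCC5, were picked by name from the study's list of 38 nucleotide excision repair genes for their known roles, without a threshold on their levels, although earlier results of these data were known when they were picked. They are 8 of the 24356 genes in the count tables, and all 8 were among the 22698 genes tested.

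The levels were read from whole-transcriptome libraries of White Leghorn chickens, 3 each of chicken embryonic fibroblasts (CEFs), EGK.X blastoderms, and primordial germ cells (PGCs), none of them given a DNA-damaging treatment. CEFs are adherent body cells from HH stage 28 embryos (embryonic day 6) with the organs and limbs taken off, pooled from 5 embryos a replicate and grown to passage 2. EGK.X blastoderms, the stage X embryos of freshly laid eggs, were pooled by 10. PGCs, the precursors of the gametes, were enriched with magnetic beads by the surface antigen SSEA-1, out of 484 to 684 gonads of HH stage 28 a replicate. Of these groups, the CEFs alone had been cultured, so culture, tissue, and stage cannot be told apart in a comparison of CEFs with EGK.X blastoderms. Between PGCs and CEFs the same holds for cell type, tissue, culture, and bead sorting. Between PGCs and EGK.X blastoderms it holds for cell type, stage, tissue, and sorting. In bulk samples such as these, fewer cells of a type and less RNA per cell cannot be told apart either.

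Between 29512715 and 67475925 counts fell on genes in a library, and a member had 427 to 27468 counts in a library. The labels were checked against the 3 pluripotency markers that could be matched to an identifier, while no marker of germ cells or fibroblasts could be. NANOG had at most 2 counts in a CEF library, against 567 to 683 CPM (counts brought to a common depth with TMM factors) in the EGK.X blastoderms and 140 to 150 CPM in the PGCs. Pou5f3 had a mean of 9.27 ± 1.22 CPM in CEFs, 553 ± 93.7 CPM in EGK.X blastoderms, and 187 ± 26.6 CPM in PGCs (SD, n = 3). SOX2 was low in all groups, but at most 0.14 CPM in CEFs. It had 1.53 to 5.95 CPM in EGK.X blastoderms and 3.14 to 3.59 CPM in PGCs. EGK.X blastoderm replicate 3 stood apart from replicates 1 and 2, with a chi-square per degree of freedom over genes of 196 and 202 against them, where replicates 1 and 2 gave 24.8 with each other. In the CEFs, replicate 2 gave 203 and 146 against replicates 1 and 3, which gave 107 with each other. The pairs of PGCs gave 15.9 to 23.9. Results that rest on the third EGK.X replicate are therefore given with and without it.

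The members lie on 6 chromosomes of GRCg6a, the build of the counts. XPC (ENSGALG00000006357) is at 11188945 to 11196767 of chromosome 12, CETN2 (ENSGALG00000007510) at 11283945 to 11289018 of chromosome 4, and DDB2 (ENSGALG00000008218) at 23388785 to 23403305 of chromosome 5. ERCC6 (ENSGALG00000006254) spans 19565955 to 19609491 of chromosome 6 and ERCC5 (ENSGALG00000016860) 144193574 to 144208754 of chromosome 1. Chromosome Z, the sex chromosome that male birds carry as a pair and females singly, holds the other 3. They are RAD23B (ENSGALG00000015540) at 55711213 to 55747828, ERCC8 (ENSGALG00000014732) at 18931084 to 18970451, and XPA (ENSGALG00000028998) at 70935594 to 70942308. The CETN2 locus is listed as CETN2 / CETN1, and RefSeq calls it CETN1 with CETN2 as a synonym while naming another gene of chromosome 4 CETN2, so which centrin was counted is uncertain. In RefSeq's assembly GRCg7b, XPC overlaps LSM3, DDB2 overlaps ACP2 and PACSIN3, ERCC6 overlaps LOC121113374, and the microRNA genes MIR1583 and MIR2954 lie within XPA. The strand setting and overlap mode of the counting are not given in the sources used here, so reads of such neighbours could be in the counts of these 4 genes or missing from them.

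The damage recognition genes did not change as a block. XPC and DDB2, 2 of the 4 genes of global genome recognition, rose in PGCs over CEFs, while RAD23B and CETN2 were not called in any comparison. ERCC5 fell in both EGK.X blastoderms and PGCs. ERCC6 stood highest in EGK.X blastoderms, by a difference at the edge of the threshold, and RAD23B was highest there too, by a smaller difference. XPA was called higher in EGK.X blastoderms over CEFs, a call lost in 6 of 22 alternative settings. A gene was called when the quasi-likelihood test of edgeR gave a p under 0.05 after Benjamini-Hochberg adjustment over the whole table and the log2 fold change (logFC) was beyond 1 in either direction. The 3 comparisons share libraries, so each is given with its own values.

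**Figure D1:**
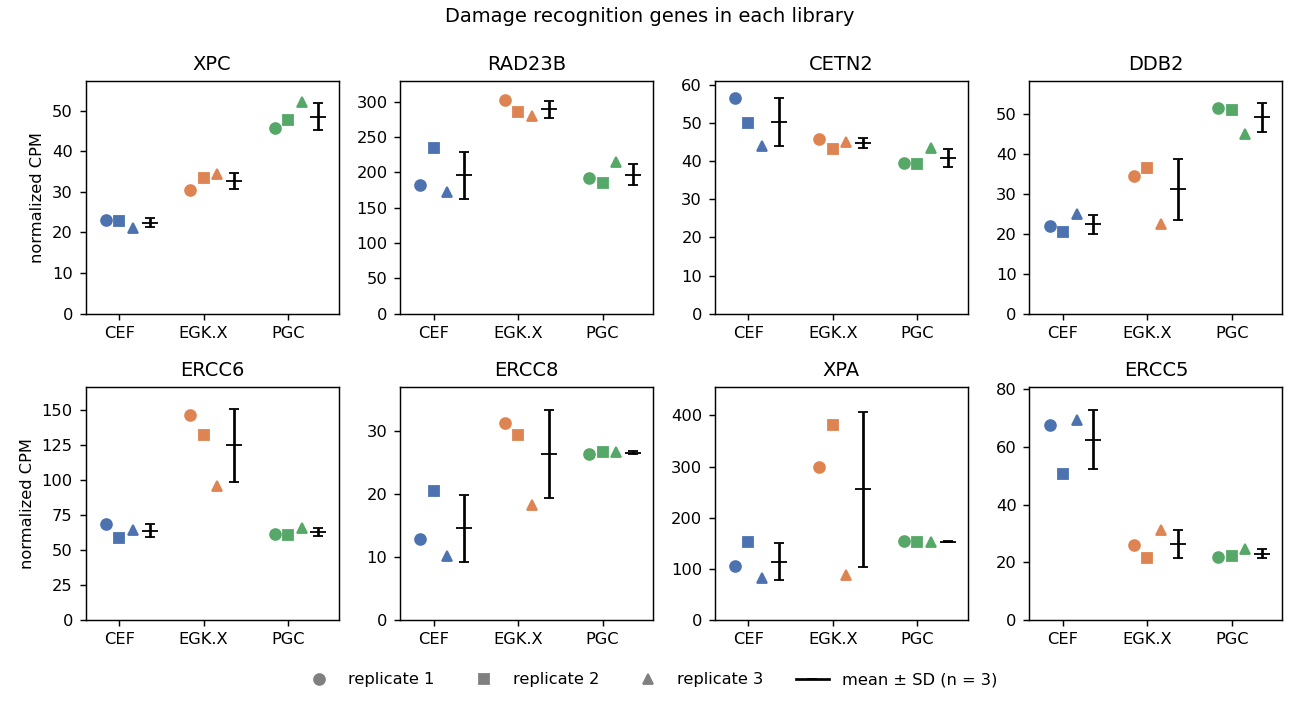
Normalized CPM (vertical axis, from 0, with its own scale for each gene) of the 8 genes in the 9 libraries, with the mean ± SD of the 3 replicates beside each group. XPC and DDB2 are highest in PGCs, ERCC5 is highest in CEFs, and XPA runs from 87.1 to 380.5 CPM among the EGK.X blastoderms but from 152 to 154 CPM among the PGCs.

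In EGK.X blastoderms compared with CEFs, 1 member was called higher (XPA) and 1 was called lower (ERCC5). Over all genes tested, 23.1% were called higher and 21.6% lower, so by both thresholds the members were called no more often than genes in general. All genes tested include those with as few as 1 count, while each member had at least 427 counts in every library. By the adjusted p alone 6 of the 8 members were higher, a larger share than the 30.1% of all genes. Only 1 member was lower by it, where 26.9% of all genes were. The set was not tested as a whole. The libraries of the groups did not overlap for 3 members that were higher and 1 that was lower, against 31.6% and 27.8% of all genes. The median logFC of the 8 members was 0.55, beside 0.09 over all genes tested and 0.56 over the 30 other genes of the same repair pathway.

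In PGCs compared with CEFs, 2 members were called higher (XPC and DDB2) and 1 lower (ERCC5), with 23.7% of all genes called higher and 18.5% lower. By the adjusted p alone the members' counts were 3 and 1 (28.5% and 26.5% of all genes). Libraries did not overlap for 3 members higher and 2 lower in PGCs (34.5% and 30.5% of all genes). The members' median logFC was 0.22, beside 0.05 over all genes.

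In PGCs compared with EGK.X blastoderms, 0 members were called by edgeR's quasi-likelihood test in either direction, and DESeq2 and limma also called 0, while 23.4% of all genes were called higher and 18.5% lower. At an unadjusted p under 0.05, 2 members were higher (XPC and DDB2) and 2 were lower (RAD23B and ERCC6), the same 4 that passed the adjusted p alone, by which 28.2% of all genes were higher and 26.5% lower. Their libraries were also those that did not overlap (33.4% of all genes higher and 30.3% lower). The median logFC of the members was -0.16, beside 0.03 over all genes. The count of 0 depended on the setting. ERCC6, at -0.997, was just short of the fold threshold and was called lower in PGCs in 8 of 22 alternative settings. Among these was the fit without EGK.X replicate 3, in which 2 members were called lower, ERCC6 at -1.16 and XPA at -1.15.

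**Figure D2:**
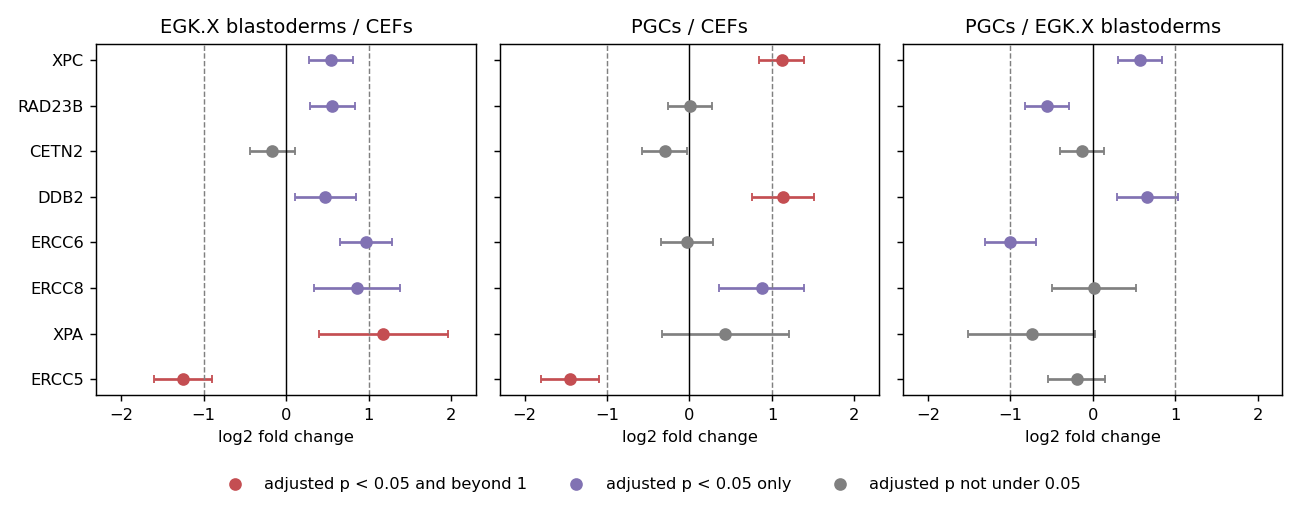
logFC of each member (points, horizontal axis on the log2 scale) with its nominal 95% interval (1.96 SE) in the 3 comparisons. The multiplier is that of a normal distribution, so these intervals, and those given as 95% in the text, are somewhat too narrow. Lines mark the threshold of 1 in either direction (red for called, violet for adjusted p only, grey for neither). XPC and DDB2 lie beyond it for PGCs over CEFs at 1.12 and 1.13, and ERCC5 lies beyond it in the other direction in both comparisons with CEFs, at -1.26 and -1.45.

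XPC encodes the lesion sensor of global genome repair. Its level was 23.2, 22.8, and 21.2 CPM in CEF replicates 1 to 3, then 30.4, 33.3, and 34.3 CPM in the EGK.X blastoderms, and 45.6, 47.8, and 52.1 CPM in the PGCs. The 3 groups did not overlap, with CEFs lowest and PGCs highest. The rise in PGCs over CEFs had a logFC of 1.12 (SE 0.14, edgeR adjusted p = 1.97e-05). It was called under each of 22 alternative settings, with values from 1.06 to 1.80. EGK.X blastoderms lay between, 0.55 above CEFs (SE 0.14, adjusted p = 0.00433) and 0.57 below PGCs (adjusted p = 0.00354), both short of the fold threshold.

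DDB2 encodes the ultraviolet-damage sensor that works with DDB1 in a ubiquitin ligase. It stood at 21.9, 20.4, and 25.1 CPM in CEFs, at 34.4, 36.6, and 22.5 CPM in EGK.X blastoderms, and at 51.6, 51.1, and 45.1 CPM in PGCs. The PGC libraries were all above the other 6, whereas the third EGK.X replicate lay within the range of the CEFs. DDB2 rose in PGCs over CEFs by a logFC of 1.13 (SE 0.19, adjusted p = 0.000251), and this too was called under all 22 alternatives (1.04 to 1.82). PGCs exceeded EGK.X blastoderms by a logFC of 0.66 (SE 0.19, adjusted p = 0.00999). Without EGK.X replicate 3 this was 0.47, and over the 22 alternatives the adjusted p was at most 0.0498. The smaller difference of EGK.X blastoderms from CEFs, a logFC of 0.47 (SE 0.19, adjusted p = 0.0485), was at the edge of the test. Its adjusted p was 0.00111 without EGK.X replicate 3 and 0.0469 without CEF replicate 3, but 0.0656 to 0.173 with any other library left out. It also exceeded 0.05 with a minimum of 10 counts (0.0536), the replicate block (0.0791), the fit of those groups only (0.0996), and limma (0.0691 and 0.0613 at pseudocounts of 1 and 0.1).

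RAD23B, which stabilizes XPC and hands ubiquitinated proteins to the proteasome, followed another order. It measured 182, 234, and 172 CPM in CEFs, 302, 285, and 279.7 CPM in EGK.X blastoderms, and 191, 185, and 214 CPM in PGCs. EGK.X blastoderms were above all other libraries, and CEFs and PGCs overlapped. The EGK.X level was higher than that of CEFs by a logFC of 0.56 (SE 0.14, adjusted p = 0.00373) and PGCs were lower than EGK.X blastoderms by -0.55 (SE 0.14, adjusted p = 0.00433), both within the fold threshold. Without CEF replicate 2 the former was 0.71 (adjusted p = 0.000582). Between PGCs and CEFs the logFC was 0.01, with a 95% interval of -0.26 to 0.27 (adjusted p = 0.993), and its sign turned when genes with low counts were filtered out. With library size alone it was 0.70 (adjusted p = 0.000356).

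CETN2, a centrin that binds XPC and also belongs to centrioles, had the smallest spread of group means in this set. The CEFs measured 56.6, 49.9, and 44.1 CPM, the EGK.X blastoderms 45.7, 43.3, and 45.1 CPM, and the PGCs 39.6, 39.3, and 43.5 CPM. PGC libraries were all below the CEF libraries, by a narrow gap, and the EGK.X blastoderms overlapped with both. The logFC was -0.17 for EGK.X blastoderms over CEFs (95% interval -0.44 to 0.10, adjusted p = 0.325), -0.30 for PGCs over CEFs (adjusted p = 0.0847), and -0.13 for PGCs over EGK.X blastoderms (adjusted p = 0.436). None passed the test, but the value for PGCs over CEFs depended on the setting. It had an adjusted p of 0.0334 with filterByExpr, 0.0336 with a minimum of 10 counts, 0.04 with limma at a pseudocount of 1, 0.0486 without CEF replicate 3, and 0.0451 without EGK.X replicate 3, lower in PGCs each time. With library size alone as the scaling all 3 values turned positive (0.34, 0.39, and 0.046), and PGCs were then higher than CEFs with an adjusted p of 0.0334.

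ERCC6 encodes the CSB ATPase, which binds the stalled polymerase. It read 68.5, 58.7, and 64.3 CPM in CEFs, 147, 132, and 95.8 CPM in EGK.X blastoderms, and 61.3, 60.4, and 65.9 CPM in PGCs. The EGK.X blastoderms were above all other libraries, replicate 3 by the least, and CEFs and PGCs lay in 1 range. EGK.X blastoderms had a logFC of 0.97 over CEFs (SE 0.16, adjusted p = 0.000211) and PGCs one of -0.997 against EGK.X blastoderms (SE 0.16, adjusted p = 0.000188), both just short of the fold threshold. Both passed the adjusted p under every alternative, with the fold threshold met in 6 of 22 alternatives for the former and 8 of 22 for the latter. Without EGK.X replicate 3 they were 1.13 and -1.16, past both thresholds. PGCs and CEFs gave a logFC of -0.03 (95% interval -0.34 to 0.28, adjusted p = 0.902), which turned positive under DESeq2, library size alone, upper-quartile scaling, and the fit of those groups only, with an adjusted p of 0.00196 for library size alone (0.66).

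ERCC8 encodes CSA, the substrate receptor of the ligase that acts with CSB. CEFs had 12.9, 20.5, and 10.2 CPM, EGK.X blastoderms 31.2, 29.4, and 18.3 CPM, and PGCs 26.3, 26.7, and 26.7 CPM. CEF replicate 2 stood above its group and EGK.X replicate 3 below its own, so these groups overlapped, while every PGC library was above every CEF library. The logFC over CEFs was 0.86 in EGK.X blastoderms (SE 0.26, adjusted p = 0.0145) and 0.87 in PGCs (SE 0.26, adjusted p = 0.0136), within the fold threshold. The adjusted p of the former was 0.0514 without CEF replicate 1, 0.0569 without CEF replicate 3, and 0.0592 without EGK.X replicate 1, and that of the latter 0.0535 without CEF replicate 3. Without CEF replicate 2 the values were 1.19 and 1.21, and the former was 1.06 without EGK.X replicate 3, all past both thresholds. PGCs and EGK.X blastoderms had a logFC of 0.02 (95% interval -0.50 to 0.53, adjusted p = 0.976), and -0.19 without EGK.X replicate 3.

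XPA binds the opened DNA around the lesion and gathers the other factors. It stood at 105, 153, and 81.6 CPM in CEFs, at 299.7, 380.5, and 87.1 CPM in EGK.X blastoderms, and at 154, 152, and 153 CPM in PGCs. EGK.X replicates 1 and 2 were above every other library, and replicate 3 was at 0.258 of their geometric mean and within the range of the CEFs. The EGK.X blastoderms were called higher than CEFs, with a logFC of 1.18 (SE 0.40, adjusted p = 0.0233). The call was lost in 6 of 22 alternatives, among them those that left out CEF replicate 1 (adjusted p = 0.0686), CEF replicate 3 (0.0845), EGK.X replicate 1 (0.0672), or EGK.X replicate 2 (0.122), and limma on the normalized matrix. Without EGK.X replicate 3 the logFC was 1.59 (adjusted p = 5.24e-05), and without CEF replicate 2 it was 1.45 (adjusted p = 0.0136). PGCs did not pass against CEFs (logFC 0.44, 95% interval -0.34 to 1.21, adjusted p = 0.369) or against EGK.X blastoderms (logFC -0.74, 95% interval -1.51 to 0.03, adjusted p = 0.132), although the latter was -1.15 without EGK.X replicate 3 (adjusted p = 0.000634). The former was 1.13 with library size alone (adjusted p = 0.0216) and 0.54 in the fit of those groups only (adjusted p = 0.0342).

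ERCC5 encodes the XPG nuclease, the only member called in both comparisons with CEFs. Its level was 67.5, 50.7, and 69.4 CPM in CEFs, 26.1, 21.4, and 31.1 CPM in EGK.X blastoderms, and 22.0, 22.2, and 24.7 CPM in PGCs. Every CEF library was above the other 6, and EGK.X blastoderms and PGCs overlapped. It fell in EGK.X blastoderms with a logFC of -1.26 (SE 0.18, adjusted p = 6.30e-05) and in PGCs with one of -1.45 (SE 0.18, adjusted p = 2.02e-05). With library size alone these were -0.75 and -0.77, within the fold threshold, and they stayed past both thresholds in the other 21 alternatives. PGCs over EGK.X blastoderms gave -0.19 (95% interval -0.54 to 0.15, adjusted p = 0.378).

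Ratios of partner genes within a library do not depend on how libraries are scaled. For 6 pairs, the log2 ratio of counts was compared between groups with a two-sided exact permutation test, whose smallest p with 3 libraries against 3 is 0.1, so none of the 18 comparisons could reach 0.05. The values of 5 of these pairs are given. The libraries did not overlap in 10 of the 18. Lack of overlap was common in these groups. Of all single genes, 31.6% were higher and 27.8% lower without overlap in EGK.X blastoderms over CEFs. The shares were 34.5% and 30.5% in PGCs over CEFs, and 33.4% and 30.3% in PGCs over EGK.X blastoderms. No such share was computed for ratios of other gene pairs. The ratio of counts is not a ratio of molecules, since gene length enters it, and its differences between groups are what is compared.

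XPC shifted against RAD23B in PGCs only, and between all groups against the locus listed as CETN2, whose centrin is uncertain as stated above. The log2 ratio of XPC to RAD23B averaged -3.12 ± 0.21 for CEFs, -3.15 ± 0.15 for EGK.X blastoderms, and -2.02 ± 0.06 for PGCs (mean ± SD, n = 3 each). PGCs were thus 2.14-fold above CEFs and 2.18-fold above EGK.X blastoderms, without overlap (exact permutation p = 0.1 for each, 0.18 adjusted over the 18 comparisons), whereas EGK.X blastoderms and CEFs overlapped (difference -0.03, exact p = 0.7). XPC to CETN2 was -1.16 ± 0.12 for CEFs, -0.45 ± 0.12 for EGK.X blastoderms, and 0.25 ± 0.04 for PGCs, a different level in each group with no overlap between any of them (exact p = 0.1 for each).

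DDB2 to its partner DDB1 was -3.80 ± 0.13 for CEFs, -3.38 ± 0.34 for EGK.X blastoderms, and -2.52 ± 0.14 for PGCs. PGCs were 2.43-fold above CEFs and 1.81-fold above EGK.X blastoderms, with no overlap (exact p = 0.1 for each). On the log2 scale the difference from EGK.X blastoderms was 0.86, and 0.66 without EGK.X replicate 3. DDB1 itself had a logFC of -0.15 in PGCs over CEFs (adjusted p = 0.281), beside 1.13 for DDB2. The transcription-coupled pair, ERCC6 to ERCC8, stood at 2.197 ± 0.602 for CEFs, 2.26 ± 0.11 for EGK.X blastoderms, and 1.23 ± 0.06 for PGCs. The ratio in PGCs was 0.490 of that in EGK.X blastoderms and below every library of the other groups (exact p = 0.1 for each). XPA to ERCC5 was 0.82 ± 0.70 in CEFs and 2.74 ± 0.09 in PGCs, which did not overlap (exact p = 0.1), and 3.05 ± 1.39 in EGK.X blastoderms, where the third replicate had 2.80 XPA counts for each ERCC5 count and the highest had 17.8.

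**Figure D3:**
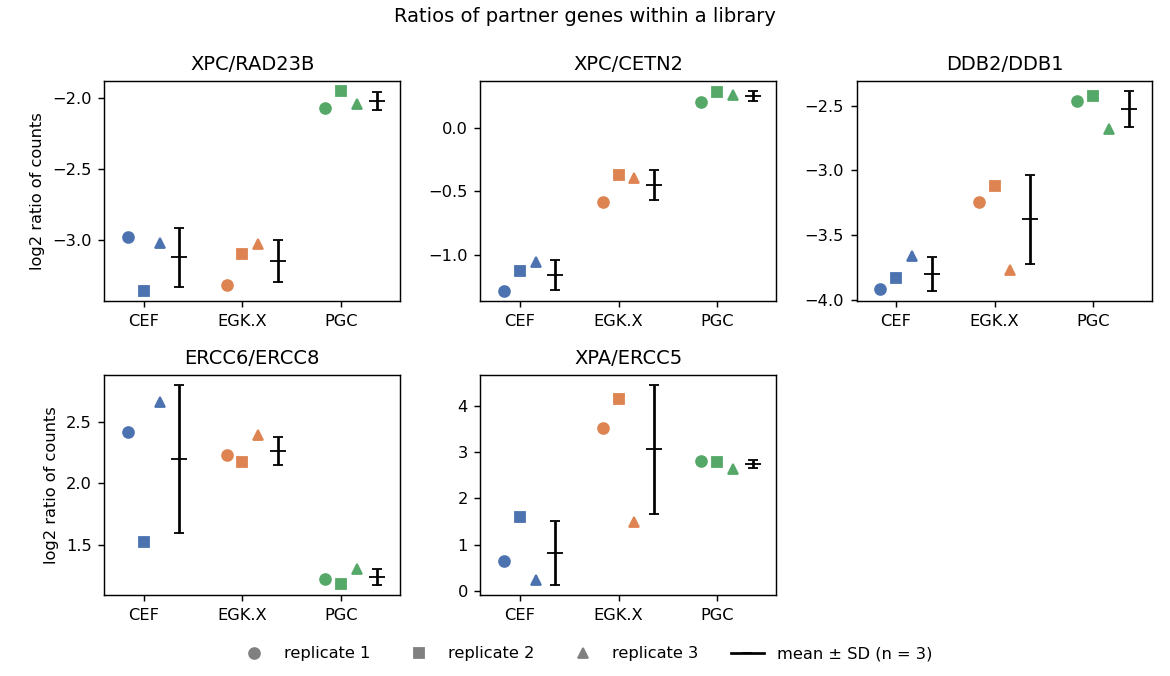
log2 ratio of the counts of 5 gene pairs (vertical axis) in each of the 9 libraries, with the mean ± SD of each group. The PGCs lie above the other groups for XPC to RAD23B, XPC to CETN2, and DDB2 to DDB1, and below them for ERCC6 to ERCC8.

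Spread between replicates was unequal among the members and the groups. In PGCs the coefficient of variation was 0.721% for XPA and 0.947% for ERCC8, and at most 7.90% for any member. In CEFs it was 37.0% for ERCC8, 32.0% for XPA, 16.9% for RAD23B, and 16.4% for ERCC5, against 4.79% for XPC. In EGK.X blastoderms it was 59.3% for XPA, 26.6% for ERCC8, 24.3% for DDB2, and 21.0% for ERCC6, against 2.89% for CETN2 and 4.07% for RAD23B. The third EGK.X replicate carried most of it. Relative to the geometric mean of the other replicates it was at 0.258 for XPA, 0.604 for ERCC8, 0.634 for DDB2, and 0.688 for ERCC6, but at 1.08 for XPC, 1.01 for CETN2, and 1.32 for ERCC5.

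The 3 members on chromosome Z were the highest of the set in CEF replicate 2 relative to the other CEFs, a pattern that was noticed in the values and then described. In that library XPA was at 1.65, ERCC8 at 1.79, and RAD23B at 1.32 of the geometric mean of the other CEF replicates, while the 5 members on other chromosomes were at 0.741 to 1.03. Of the study's lists of DNA repair, apoptosis, and pluripotency genes, 7 other genes on chromosome Z had at least 1 CPM in all libraries. Their median log2 difference in this library was 0.77, with 6 of 7 above 0, beside -0.07 and 54 of 126 above 0 for listed genes of other chromosomes. In CEF replicate 3 the medians were -0.64 for the Z-linked members, -0.38 for the other Z-linked genes, and -0.04 for the rest. Each difference is taken from the other libraries of the group, so high values in CEF replicate 2 lower those of the other CEFs. The values of CEF replicate 3 are therefore not independent of those of replicate 2. In CEF replicate 1 the medians of the same lists were -0.14, -0.19, and 0.08. The Z-linked medians of replicate 3 thus lay below those of replicate 1. EGK.X replicate 3 differed from the CEF libraries, since its Z-linked members had a median of -0.73 while the 7 other Z-linked genes had one of -0.01. The labels do not give the sex of the pooled embryos, and its part in the CEF values was not tested.

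**Figure D4:**
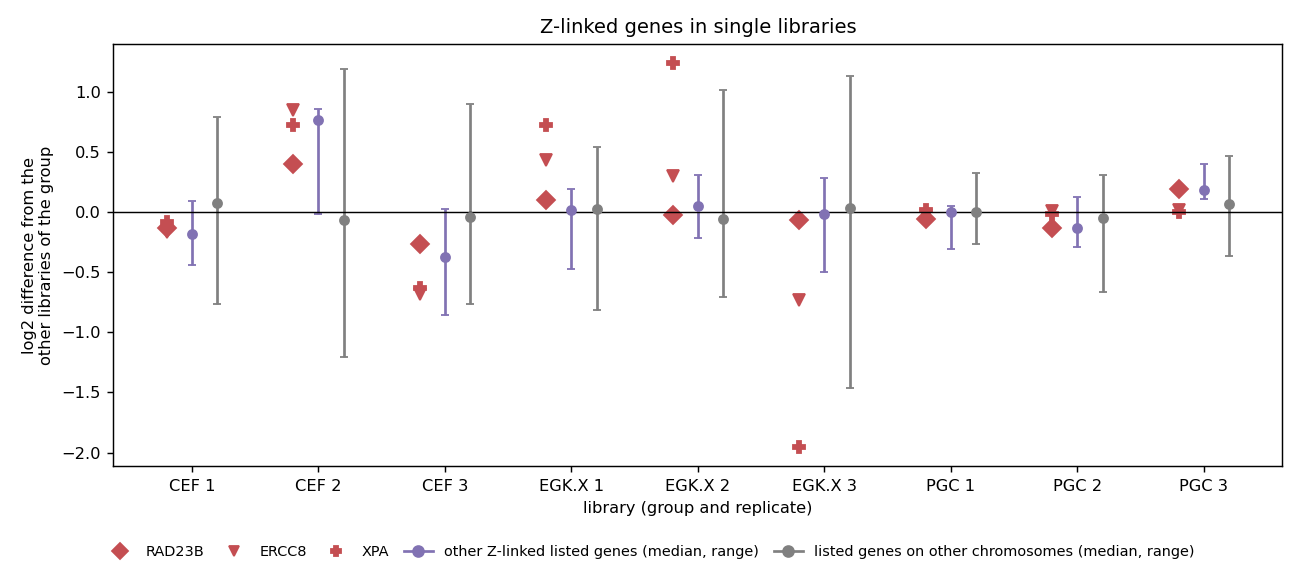
Difference in log2 CPM of each library from the mean log2 CPM of the other libraries of its group (vertical axis). Shown are RAD23B, ERCC8, and XPA (red symbols), 7 other Z-linked genes, and 126 genes of other chromosomes (circles for the median, bars for the range over genes). In CEF replicate 2 the 3 members and the other Z-linked genes are above 0 in the median, and in EGK.X replicate 3 XPA is at -1.96 while the other Z-linked genes are centred on 0.

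The rest of the pathway carries out what follows recognition, namely opening, protection, cutting, and refilling of the strand. Of its 30 other listed genes, 9 were called higher and 1 lower in EGK.X blastoderms over CEFs, 2 higher and 0 lower in PGCs over CEFs, and 1 higher and 10 lower in PGCs over EGK.X blastoderms. The shares over all genes tested, higher and lower, were 23.1% and 21.6%, 23.7% and 18.5%, and 23.4% and 18.5% in the same order. For the count of 0, edgeR's quasi-likelihood test had 3 genes lower by the adjusted p alone, where 26.5% of all genes were. It had 5 genes lower at an unadjusted p under 0.05, and DESeq2 and limma also called 0. No share of all genes at an unadjusted p was computed, for these genes or for the ligase genes below. The largest rise in EGK.X blastoderms over CEFs was that of RFC3, a subunit of the clamp loader, with a logFC of 2.41 (SE 0.19, adjusted p = 4.13e-07), and the same gene had the largest fall in PGCs against EGK.X blastoderms (-1.98, adjusted p = 2.44e-06). In PGCs over CEFs, RFC5 of the same complex rose the most (1.59, adjusted p = 8.23e-07). The median logFC of the 30 genes in PGCs over EGK.X blastoderms was -0.55, where the 8 recognition genes had -0.16.

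By step, none of 4 genes of the DDB ligase (DDB1, CUL4A, CUL4B, and RBX1) was called in any of the 3 comparisons. For this and the following steps, the shares called over all genes tested are those given above. By the adjusted p alone, the shares of all genes higher and lower were 30.1% and 26.9%, 28.5% and 26.5%, and 28.2% and 26.5% in the same order. Of the 4 ligase genes, 2, 1, and 1 passed the adjusted p alone in EGK.X blastoderms over CEFs, PGCs over CEFs, and PGCs over EGK.X blastoderms. At an unadjusted p under 0.05 the counts were 3, 1, and 1, while DESeq2 and limma called 0 in each. CUL4A, a scaffold of that ligase, was lower in EGK.X blastoderms than in CEFs (-0.64, adjusted p = 0.00738). Its level in PGCs was higher than in EGK.X blastoderms (0.82, adjusted p = 0.00161). CUL4B went the other way in EGK.X blastoderms over CEFs (0.31, adjusted p = 0.0367). For PGCs over EGK.X blastoderms CUL4B did not pass (0.08, adjusted p = 0.572). CUL4B had the higher mean of both genes in each group, 158 CPM against 31.5 CPM for CEFs. The means were 195 against 20.2 CPM for EGK.X blastoderms, and 207 against 35.7 CPM for PGCs. Of 8 listed genes of TFIIH, the helicase complex that opens the DNA, GTF2H2 rose in EGK.X blastoderms over CEFs (1.33, adjusted p = 5.06e-06), and GTF2H2 (-1.41) and GTF2H1 (-1.07) fell in PGCs against EGK.X blastoderms. The listing holds 1 of these 8 under the symbol NMNAT1 with the description of MNAT1.

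ERCC4 (XPF), the nuclease that cuts on the other side of the lesion from ERCC5, had its own pattern. Its logFC was 0.25 in EGK.X blastoderms over CEFs (adjusted p = 0.224) and -0.89 in PGCs over CEFs (adjusted p = 0.000708), and it fell in PGCs against EGK.X blastoderms by 1.14 on the log2 scale (adjusted p = 0.000111). Its mean was 33.0 ± 4.99 CPM in CEFs, 39.3 ± 4.22 CPM in EGK.X blastoderms, and 17.8 ± 2.03 CPM in PGCs (SD, n = 3), so it was low in PGCs only, where ERCC5 was low in EGK.X blastoderms as well. Of the 3 subunits of RPA, which coats the undamaged strand, RPA2 (1.77) and RPA3 (1.73) rose in EGK.X blastoderms over CEFs and fell in PGCs against EGK.X blastoderms (-1.18 and -1.42). The locus named RPA2 here is listed as RPA4 / RPA2. Among 13 genes of synthesis and ligation, 6 were called higher and 1 lower in EGK.X blastoderms over CEFs, 2 higher in PGCs over CEFs, and 1 higher and 5 lower in PGCs over EGK.X blastoderms. The shares of all genes, higher and lower, were 23.1% and 21.6%, 23.7% and 18.5%, and 23.4% and 18.5% for these 3 comparisons. POLE4, a subunit of a replicative polymerase, was the gene of this step called lower in EGK.X blastoderms over CEFs (-1.26) and higher in PGCs over EGK.X blastoderms (1.93).

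**Figure D5:**
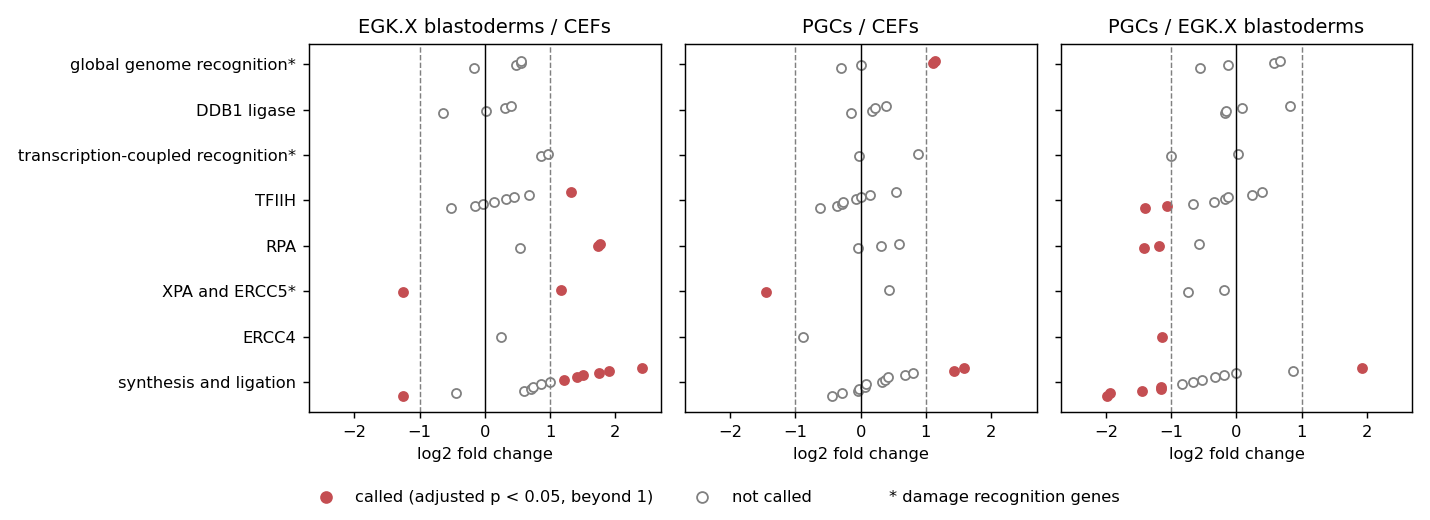
logFC (log2 scale) of 37 of the 38 listed genes of nucleotide excision repair, 1 point a gene, arranged by step, in the 3 comparisons. Recognition genes lie between -1.45 and 1.18, and the points farthest from 0 are genes of synthesis and ligation, RFC3 at 2.41 and -1.98.

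The pattern of each member over the 9 libraries was compared, as a description, with 152 other genes of the study's lists by Pearson's r of log2(CPM + 1). The libraries share groups and scaling, so a high r says mainly that a gene has the same order of groups. XPC was closest to RFC5 (r = 0.98), another clamp loader subunit already named for its rise in PGCs, and DDB2 was also closest to RFC5 (r = 0.92). ERCC6 was closest to TOP3B, a topoisomerase (r = 0.98), and RAD23B to GTF2H2 (r = 0.95). The nearest genes of ERCC5 were BAK1 (r = 0.98), an effector of mitochondrial apoptosis, and FAS (r = 0.96), a death receptor. ERCC8 was nearest to RFC2 (r = 0.88), XPA to SMAD1 (r = 0.88), and CETN2 to FADD (r = 0.81), the loosest of the 8. With library size alone as the scaling, the nearest gene was another one for RAD23B, CETN2, ERCC6, and XPA. Among the members themselves, XPC and DDB2 (r = 0.87), RAD23B and ERCC6 (r = 0.85), and ERCC8 and XPA (r = 0.80) were the closest pairs, and ERCC8 and ERCC5 the most opposed (r = -0.91). XPC and RAD23B, which form 1 complex, had an r of 0.03.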

How the data were processed

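RNA of 9 libraries (TruSeq Stranded Total RNA with Ribo-Zero Gold, paired ends) was trimmed with Trimmomatic 0.39, aligned to GRCg6a with HISAT2 2.2.0, and counted on Ensembl genes with HTSeq by the authors. The deposited counts are whole reads per gene without normalization. The deposited normalized matrix is a signal per gene, the counts in TMM-scaled CPM, and CPM recomputed from the counts differed from it by at most 3.25e-06%.

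One edgeR 4.0.16 fit in R 4.3.3 took in all 9 libraries and every gene with a count of 1 or more (22698), with TMM factors of 0.739 to 1.26, a prior count of 0.125, and no replicate block. P-values of the quasi-likelihood test were adjusted over the whole table (Benjamini-Hochberg). The SE is the size of the logFC over the square root of F. The 95% intervals are the logFC ± 1.96 SE and are nominal. Their multiplier is that of a normal distribution, while the test has few degrees of freedom, so they are somewhat too narrow. For CETN2 in PGCs over CEFs the interval of -0.57 to -0.03 excluded no change, although the unadjusted quasi-likelihood p was 0.0507. The test was first run on simulated counts. These had the same dispersion for every gene and few changed genes, unlike the real data, so the run says little about error rates here. The study's likelihood ratio test, DESeq2 1.42.0, limma 3.58.1, other scalings and filters, and each library left out were alternatives. Replicates are described as biological.

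The members and lists were chosen with earlier results of these data known. Named were all members, ERCC4, the DDB ligase genes, the other pathway genes called with the greatest change up or down in each comparison, and from the 2 genes most like each member. GTF2H1, RPA2, RPA3, and the Z-linked comparison were added after values were seen. Of 23 planned marker genes, 20 were not used here, because no identifier was at hand. The values of 1 planned gene are not reported here, although it belongs to the counts over the pathway.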

Additional observations from a re-analysis of the deposited data

How the results depend on the processing

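Over the alternatives, 112 of 138 values of the members' counts stayed within 1.5 times. None of the 144 alternative values of the ratios moved beyond the replicate spread, but this could hardly have come out otherwise. Leaving out 1 of 3 libraries moves a group's mean by less than its SD. The replicate block leaves the difference of a ratio unchanged, and a pseudocount hardly alters ratios of counts this high. In EGK.X blastoderms over CEFs, the members called higher numbered 2 under DESeq2, under its size factors in edgeR, and with CEF replicate 2 and PGC replicate 2 both left out (chosen after seeing the data), 5 with library size alone, 3 with upper-quartile scaling, 0 with limma at either pseudocount (1 or 0.1), 6 by the adjusted p alone, and 0 to 3 with a library left out. In PGCs over CEFs, 4 were higher with library size alone, which called 0 lower in both comparisons with CEFs. In PGCs over EGK.X blastoderms, 1 was lower with upper-quartile scaling, with filterByExpr, with a minimum of 10 counts, and with the fit of the 2 groups compared, 0 to 2 with a library left out, and 2 higher and 2 lower by the adjusted p alone.

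Library size alone moved the median of all genes by 0.50, 0.68, and 0.18 in the 3 comparisons, and upper-quartile scaling by 0.18 and 0.12 in those with CEFs. The members' median was 1.06, 0.91, and 0.013 with library size alone, which turned the sign of the last, and 0.74 (EGK.X over CEF) and -0.23 (PGC over EGK.X) with upper-quartile scaling. Relative to all genes it was 0.47, 0.18, and -0.20 with library size alone, beside 0.46, 0.17, and -0.20 with TMM. For PGCs over EGK.X blastoderms the median was also -0.19 with filterByExpr and with the 2 groups alone, -0.14 with both libraries left out, and -0.26 to -0.16 with any left out. For PGCs over CEFs it was 0.46 with both left out and 0.11 to 0.43 with any left out.

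The single genes that changed sign had not passed the test as reported, although CETN2 in PGCs over CEFs passed the adjusted p, as lower, under 5 alternatives and, as higher, with library size alone. CETN2 turned to 0.34 (library size alone) and 0.017 (upper quartile) in EGK.X blastoderms over CEFs, and to 0.39 and 0.046 with library size alone in PGCs over CEFs and over EGK.X blastoderms. In PGCs over CEFs, RAD23B turned to -0.033 with filterByExpr and -0.030 with the minimum of 10 counts, and was 0.70 with library size alone, and ran from -0.080 to 0.15 with a library left out, and ERCC6 turned to 0.025 (DESeq2 and its size factors), 0.66 (library size alone), 0.092 (upper quartile), and 0.068 (2 groups alone), and ran from -0.086 to 0.024 with a library left out. In PGCs over EGK.X blastoderms, ERCC8 turned to -0.048 (upper quartile) and -0.014 (filterByExpr, and 2 groups alone), and ran from -0.19 to 0.16 with a library left out. The cause was not tested.

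Same-numbered libraries had correlations of -0.15 to 0.21 in their deviations, so the numbers were not taken as pairs. With the replicate block, all genes called numbered 9618, 9102, and 8905, against 10141, 9580, and 9500 without it, and the counts of members called stayed at 1 higher and 1 lower, 2 and 1, and 0 and 0. With 3 libraries a group, a logFC of a variable member such as XPA (SE 0.40) has a wide interval.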
